A study of Caenorhabditis elegans with 4 samples.

Results

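The 245 NFYA-1 binding sites of chromosome IV are described here, out of 1333 sites mapped over the 6 chromosomes of Caenorhabditis elegans. They are all the peaks that the authors' combined ChIP-seq list places on IV, so no measured value beyond their position chose them. The peak lists of the single replicates placed 96 sites (replicate 1) and 127 sites (replicate 2) on the same chromosome. The other 5 chromosomes, with 1088 combined peaks, served as the background.

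The animals were young adult hermaphrodites of strain OP404, grown at 20 °C and fixed with 2% formaldehyde. All carried the unc-119(ed3) mutation on chromosome III and the bombarded transgene wgIs404, which supplies unc-119(+) together with nfya-1 fused to GFP and FLAG tags. The labels name no change to the endogenous nfya-1 gene, so the ChIP with anti-GFP antibody followed the tagged copy in whole animals of a single transgenic line, in which the submitters describe the fusion as following the expression of nfya-1. There were 2 ChIP samples and 2 inputs, and the labels do not say whether the replicates came from separate cultures. Positions are on build WormBase WS180, as the file headers give it. No peak list goes with the inputs, and how they entered the peak calling was not stated in the headers.

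NF-Y is a transcription factor of 3 subunits. The B and C subunits form a histone-fold dimer, and the A subunit, of which NFYA-1 is one, joins them and makes the base contacts that recognise the CCAAT box, usually in promoters. Worm chromosomes have no single centromere. Their autosomes instead have arms, where recombination and repeats are more frequent, and a central region with more of the conserved, widely expressed genes. Chromosome IV is also known for carrying most of the worm's piRNA genes. The genes and bases at the sites below were not analysed here.

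Chromosome IV carried NFYA-1 sites along its whole spanned length, from a first peak at 291804 to 293372 to a last one at 17469938 to 17470669. The last peak end of any list, at base 17470669, was taken as the length, since chromosome lengths of this build were not used here. Its 245 peaks were 18.4% of the combined list (95% exact interval 16.3 to 20.6%) on 17.5% of the spanned length, or 14.0 peaks per Mb. Replicate 1 placed 17.6% of its sites on IV and replicate 2 placed 18.3%. The share on IV did not differ detectably from its share of the length (two-sided exact binomial test, p = 0.428, adjusted p = 1 over the 9 tests made on IV). Against a background without chromosome III, the densest one, IV held 24.5% of peaks on 20.3% of the length (exact binomial p = 0.00146, without adjustment). Leaving out III made IV the densest of the rest, with 14.0 peaks per Mb against 12.0 on I, 11.9 on X, 11.2 on II and 9.53 on V. That choice of background favoured an excess on IV, so the test cannot show one. Peaks along a chromosome are not independent, so these p-values may be too small.

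Strength is given as −log10 q, where q is the peak caller's own value for each peak. It ranks peaks within a list and depends on read depth, which is unknown. The strongest NFYA-1 site of IV lay at 11118527 to 11119627, with 129 in the combined list, 80.6 in replicate 1 and 101 in replicate 2. The next, a broader site at 8431010 to 8433194, had 89.4 in the combined list, 39.5 in replicate 1 and 48.6 in replicate 2. Among all 1333 sites these ranked 8 and 10 by strength, and both lay in the central part of the chromosome.

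The other sites above 40 lay mostly on the arms. On the right, the site at 15570567 to 15571261 reached 63.1 in the combined list (25.9 and 38.1 in replicates 1 and 2), and that at 14032646 to 14034541 reached 54.5 (19.5 and 35.7). On the left, the site at 2388755 to 2389360 reached 59.9 (29.7 and 42.3), that at 4749844 to 4750236 reached 46.2 (18.2 and 25.4), and that at 654740 to 655140, near the left end, reached 43.5 (15.9 and 28.1). Replicate 2 gave the lower q at every one of these sites. The remaining site above 40 lay at 11125175 to 11125929, with 40.1 in the combined list, and was separated from the strongest site of the chromosome by 5547 bp.

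The strongest site thus stood in a short stretch that held several strong ones. The stretch began with a broad peak at 10933038 to 10937303 of 31.1 and went on with one at 11082542 to 11083382 of 25.7, followed by the pair at 11.1 Mb. The 1 Mb segment from 11 to 12 Mb held 20 combined peaks, the highest count on the chromosome, and 5 of the 25 sites of IV with a −log10 q of 20 or more. In the segments from 9 to 10 Mb and from 10 to 11 Mb there was 1 such site each.

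The 20 strongest sites of IV were all found in both replicates. They had combined values from 129 down to 21.0, at least 8.59 in replicate 1 and at least 11.0 in replicate 2, and 18 of the 20 had the lower q in replicate 2. The exceptions, at 15027299 to 15028189 and at 5715488 to 5716097, had nearly equal values, 12.7 against 12.4 and 18.0 against 17.7. By position, 9 of the 20 lay in the left arm, 5 in the centre and 6 in the right arm, where centre stands for 33.3 to 66.7% of the spanned length and arms for the rest. Arm limits for this build are not in the sources used here, so these equal parts only approximate the recombination domains. The other members of the 20 lay at 14594150 to 14594686 (37.6), 4467851 to 4471836 (26.9), 4423882 to 4424282 (24.2), 5582239 to 5583517 (24.2), 1094146 to 1094546 (23.8), 2601950 to 2602445 (23.4), 17249423 to 17250046 (20.97) and 15049446 to 15050160 (20.96). Chromosome IV held 25 of the 135 combined peaks of 20 or more. Its median of 6.88 (quartiles 5.16 and 11.2) lay close to the 7.13 of the other chromosomes, and 48.6% of its peaks were above the median of all peaks, against 50.3% elsewhere (two-sided Fisher's exact test, p = 0.671, adjusted p = 1, odds ratio 0.934, 95% interval 0.701 to 1.24).

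**Figure D1:**
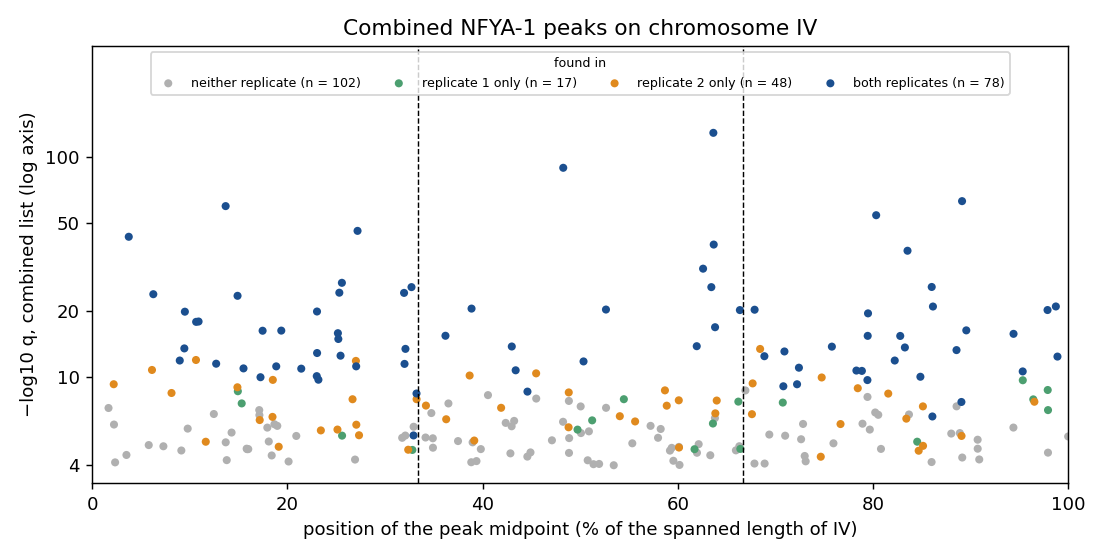
Each point is a combined peak of chromosome IV, placed by its midpoint in percent of the spanned length (x axis) and its −log10 q in the combined list (log y axis), and coloured by the replicate lists that held it. The dashed lines bound the centre, where 15 of the 78 peaks found in both replicates lie, among them the sites of 129 and 89.4.

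Replicate support was asked of each combined peak by an overlap of at least 1 bp with a replicate site. On IV, 78 of the 245 peaks were found in both replicates (31.8%, 95% interval 26.1 to 38.1%), where 32.6% of all combined peaks were. Replicate 2 alone held 48, or 19.6%, where it alone held 18.2% of all combined peaks. Replicate 1 alone held 17, or 6.94%, where it alone held 7.43% of all. Neither replicate held 102, or 41.6%, where 41.8% of all combined peaks were in neither. The share found in both was 32.8% on the other chromosomes, and the difference was not detectable (two-sided Fisher's exact test, p = 0.821, adjusted p = 1, odds ratio 0.956, 95% interval 0.700 to 1.30).

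Support followed strength closely. All 25 peaks of 20 or more were found in both replicates, and so were 44 of the 50 peaks between 10 and 20. Between 7 and 10 only 7 of 46 were, with 19 in replicate 2 alone, 9 in replicate 1 alone and 11 in neither. On the other chromosomes the shares found in both in these classes were 99.1%, 78.6% and 27.1%, against 100%, 88.0% and 15.2% on IV, and the differences were not tested. Between 5 and 7, 2 of 71 peaks of IV were found in both and 47 in neither. Elsewhere 1.37% of that class were found in both and 67.1% in neither. Below 5, 0 of 53 peaks of IV were found in both (95% interval up to 6.72%), and 44 were in neither (83.0%). On the other chromosomes 0 of 231 peaks below 5 were found in both, and 91.3% were in neither. These differences were not tested either. Since the combined list draws on both libraries that made the replicate lists, support of this kind is a description of the calls and not independent evidence for a site.

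The position of the sites along the chromosome was different for peaks found in both replicates and peaks found in neither. Peaks as a whole were spread evenly: 83 lay in the left arm, up to 5.82 Mb, 84 in the centre, up to 11.6 Mb, and 78 in the right arm. The centre held 34.3% of combined peaks (95% interval 28.4 to 40.6%), against 34.6% over all autosomes, and neither an exact binomial test against an even spread (p = 0.786, adjusted p = 1) nor Fisher's exact test against the other 4 autosomes (p = 0.940, adjusted p = 1) found a difference.

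Of the 78 peaks found in both replicates, however, 33 lay in the left arm, 15 in the centre and 30 in the right arm. The centre thus held 19.2% of them (95% interval 11.2 to 29.7%). Of the 102 peaks found in neither replicate, 46 lay in the centre, or 45.1% (35.2 to 55.3%), and 28 in each arm. The difference passed Fisher's exact test, two-sided (p = 0.000268, adjusted p = 0.00241 over the 9 tests, odds ratio 0.290, 95% interval 0.136 to 0.601). Peaks along a chromosome are not independent, so this p-value and those of the tests below may be too small. The 9 tests were also chosen with earlier results of these data known, which the adjustment does not cover. With the centre widened to 25 to 75% of the length, the shares were 43.6% and 57.8% and no longer passed (Fisher's exact p = 0.0711). Support was also uneven within the arms. From 0 to 10% and from 90 to 100% of the length, 5 of 16 peaks each were found in both replicates. From 20 to 30% of the length 12 of 22 were. The segment from 4 to 5 Mb held 11 of the 33 left-arm peaks found in both. This unevenness was not tested.

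Each replicate list on its own had fewer sites in the centre than in either arm. The centre held 23 of the 96 replicate 1 sites (23.96%, 95% interval 15.8 to 33.7%) and 31 of the 127 replicate 2 sites (24.4%, 17.2 to 32.8%). Replicate 1 had 3.95 sites per Mb there, with 6.35 per Mb on the left and 6.18 on the right. Replicate 2 had 5.32 sites per Mb there, with 8.93 on the left and 7.56 on the right. An exact binomial test against an even spread gave p = 0.0518 for replicate 1 and p = 0.0379 for replicate 2, both without adjustment. Against the other 4 autosomes, with 33.4% of replicate 1 sites and 33.7% of replicate 2 sites in the centre, neither list passed (Fisher's exact p = 0.0839 and p = 0.0518).

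**Figure D2:**
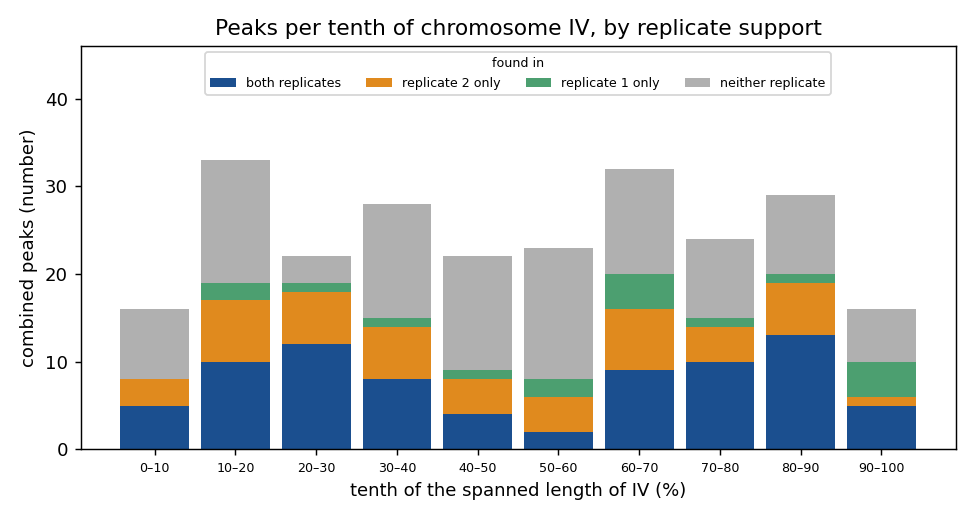
Bars give the number of combined peaks in each step of 10% of the spanned length of chromosome IV, divided by replicate support. From 50 to 60% of the length, 2 of 23 peaks were found in both replicates and 15 in neither. From 20 to 30% 12 of 22 were found in both, and from 80 to 90% 13 of 29 were. Other arm steps were lower, with 5 of 16 from 0 to 10%, 10 of 33 from 10 to 20% and 5 of 16 from 90 to 100%. From 30 to 40% 8 of 28 were found in both, and from 60 to 70% 9 of 32 were.

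Strength moved with position as well. Combined peaks of the centre had a median −log10 q of 6.18, against 7.95 on the left and 7.73 on the right, and 38.1% of them were above the median of all peaks, against 54.0% on both arms together (two-sided Fisher's exact test, chosen after the data were seen, p = 0.0220). Few peaks of IV below 7 were found in both (2 of 71 between 5 and 7, 0 of 53 below 5), and all of 20 or more were. Among peaks between 7 and 20, 7 of 24 in the centre were found in both replicates (29.2%). On the arms 44 of 72 were (61.1%, 95% interval 48.9 to 72.4%, Fisher's exact p = 0.00911, also chosen later). On the other 4 autosomes 66 of 131 such peaks in the centre (50.4%) and 140 of 249 on the arms (56.2%) were found in both. The strengths still differed within that range: 16 of the 24 central peaks were between 7 and 10, but only 30 of the 72 on the arms. Between 7 and 10 the shares found in both were 1 of 16 and 6 of 30, and between 10 and 20 they were 6 of 8 and 38 of 42. The part of strength in the difference in support was not tested further.

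The same comparison on the other chromosomes showed no such contrast. On the other 4 autosomes the centre held 34.98% of the 283 peaks found in both replicates and 35.6% of the 376 found in neither, an odds ratio of 0.972. The odds ratio of IV was lower than this one (Zelen's exact test of equal odds ratios, two-sided, p = 0.00207). It was also lower than that of the other autosomes without III, 0.948 (p = 0.00399 by the same exact test). Both comparisons were added after the data were seen. On single chromosomes the ratio was 1.04 on I, 0.995 on II, 1.12 on III, 1.01 on V and 0.938 on X. The 95% intervals of I, II, V and X, which began at 0.487, 0.436, 0.457 and 0.462, overlapped that of IV, and the interval of III, from 0.623, did not. IV was not tested against single chromosomes.

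**Figure D3:**
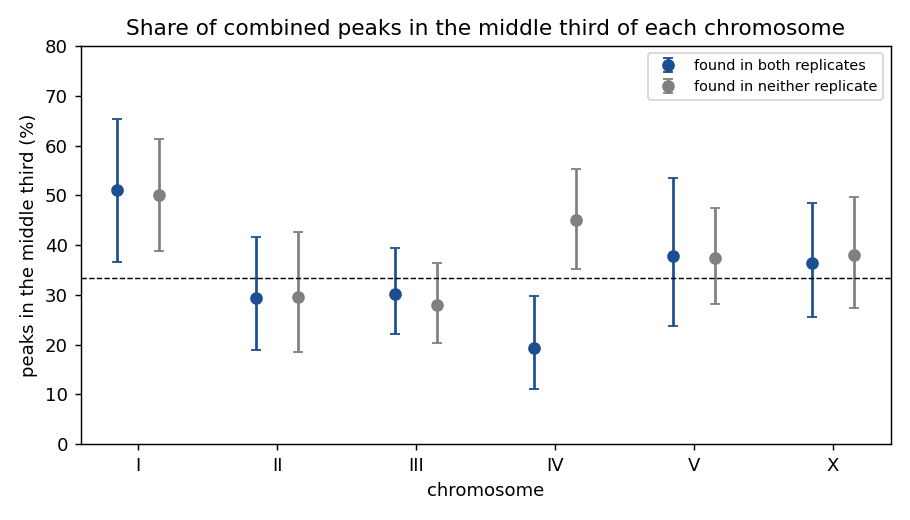
Points give the percentage of combined peaks in the centre (33.3 to 66.7%) of each chromosome's spanned length, for peaks found in both replicates and in neither, with exact 95% intervals. The dashed line marks an even spread, and IV is the chromosome on which the intervals of both classes do not overlap, 11.2 to 29.7% and 35.2 to 55.3%.

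The longest stretch of IV without a site found in both replicates ran for 1.62 Mb, from the peak at 9196263 to 9197221 (20.3) to the one at 10821142 to 10822365 (13.8). It held 19 combined peaks, of which 11 were in neither replicate, 6 in replicate 2 alone and 2 in replicate 1 alone. The longest such stretch was 1.30 Mb on I, 1.17 Mb on II, 0.561 Mb on III, 2.24 Mb on V and 1.43 Mb on X. The next longest on IV, of 0.844 and 0.832 Mb, lay on the right and left arms and held 4 and 2 combined peaks. Sites found in both replicates were a median of 111 kb apart on IV, against 223 kb on I, 101 kb on II, 60.9 kb on III, 346 kb on V and 166 kb on X.

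Spacing was measured as the bases between one peak and the next. On IV the median gap was 31.4 kb (quartiles 9.38 and 96.2 kb, n = 244 gaps), against 37.9 kb on the other chromosomes. The widest gap, between 4776813 and 5548717, spanned 772 kb and held no site of either replicate. The second widest, between 15878619 and 16489786, spanned 611 kb and was also empty in both replicate lists. This emptiness was nearly fixed in advance, since the combined list held all 96 replicate 1 sites of IV and 126 of the 127 of replicate 2. No other gap of IV reached 500 kb, while 5 exceeded 300 kb and 21 exceeded 200 kb.

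Per whole 1 Mb segment, IV held 14.0 ± 3.95 combined peaks (SD, n = 17 segments), with 6 to 20 in each. The other chromosomes held 13.3 ± 7.93 (n = 79 segments), and 11.1 ± 4.96 without III (n = 66 segments). The variance of the counts over their mean was 1.12 on IV and 1.59 to 4.96 on the others, the lowest value being that of IV. In replicate 1 it was again lowest on IV, 1.40 against 1.58 to 3.22. In replicate 2 it was 1.88 on IV, and both X, with 1.32, and V, with 1.58, were lower. Among combined peaks found in both replicates it was 1.59 on IV, and V, with 1.03, and X, with 1.41, were lower. No test was made of these ratios.

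Close neighbours made up a part of the sites. On IV, 48 of the 244 gaps were under 5 kb (19.7%, 95% interval 14.9 to 25.2%), where 19.9% of all gaps were, and the share on the other chromosomes, 19.9%, did not differ detectably (two-sided Fisher's exact test, p = 1, adjusted p = 1, odds ratio 0.983, 95% interval 0.678 to 1.41). In replicate 1, 9 of 95 gaps of IV were under 5 kb (9.47%), against 13.7% on the other chromosomes. In replicate 2, 14 of 126 were (11.1%), against 14.0%. Neither difference was detectable (Fisher's exact p = 0.315 and p = 0.471, without adjustment). Joined across such gaps, 84 of the 245 peaks fell into 36 runs of 2 to 5 peaks, and 161 stood alone. Over all chromosomes, 462 of the 1333 combined peaks fell into runs. In 29 of the 48 close pairs on IV one peak was found in both replicates and the other was not (60.4%, 95% interval 45.3 to 74.2%), in 2 pairs both were, and in 17 neither was. Mixed pairs made up 41.3% of the 196 neighbouring pairs of IV that were 5 kb or more apart, and 46.3% of the 216 close pairs on the other chromosomes. These shares were not tested against each other. The stronger of a close pair had a median of 1.76 times the −log10 q of the weaker, against 1.59 for the pairs of IV further apart and 1.956 for close pairs elsewhere.

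The longest run held 5 weak peaks within 11197 bp, from 8527315 to 8538511. Their values were 5.92, 8.53, 7.81, 4.53 and 5.29 from left to right. The first and second were found in replicate 2, with 4.39 and 5.09, and none was found in replicate 1. This run lay 94120 bp to the right of the second strongest site of the chromosome. A run of 4 peaks near the right end, from 17100615 to 17109734, began with a site of 20.2 found in both replicates. Of its other peaks, those of 8.75 and 7.09 were found in replicate 1 alone, and that of 4.54 in neither.

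The 7 runs of 3 peaks shared the rank after these. In 1 of them, from 4019767 to 4026696, every peak was found in both replicates, with combined values of 10.1, 19.9 and 12.9. The last peaks of that run were only 224 bp apart. The run at 2599609 to 2608226 had a site of 23.4 found in both. It was flanked by combined peaks of 9.004, found in replicate 2 alone, and of 8.64, found in replicate 1 alone. The run at 11146893 to 11154742 likewise had a site of 16.9 between peaks of 6.52 and 6.86 that were not found in both. The runs at 13876771 to 13882105 and at 4720539 to 4728190 reached 15.4 and 11.9. The runs at 2990020 to 2999288 and at 10499772 to 10504555 reached only 7.09 and 7.86, and no peak of either was found in both replicates.

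Widths on IV did not differ detectably from those elsewhere. The median was 484 bp (quartiles 356 and 705 bp), against 485.5 bp on the other chromosomes, and 49.0% of the peaks of IV were wider than the median of all combined peaks, 485 bp, against 50.0% (two-sided Fisher's exact test, p = 0.778, adjusted p = 1, odds ratio 0.960, 95% interval 0.720 to 1.28). Peaks wider than 1000 bp numbered 29, or 11.8% (95% interval 8.07 to 16.6%), where 14.6% of all combined peaks were. The other chromosomes had 15.3% (Fisher's exact p = 0.193, adjusted p = 0.870, odds ratio 0.746, 95% interval 0.471 to 1.15), and 17.5% without III (p = 0.0449 before adjustment). Of these broad peaks 13 lay in the left arm, 11 in the centre and 5 in the right arm. Peaks found in both replicates had a median width of 608 bp and those in neither 431.5 bp.

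The widest site of IV, at 10933038 to 10937303, spanned 4266 bp. It was 2 peaks in replicate 1, of 5.54 and 11.8, and 1 peak of 17.1 in replicate 2, and it was the only combined peak of IV that a replicate list divided. The next widest, at 4467851 to 4471836, spanned 3986 bp and was close to that in both replicates, 3973 and 3870 bp. It was followed after 224 bp by a peak of 2204 bp that only replicate 1 held. Broad peaks of 2602 and 2521 bp lay to the left of it, at 4396998 to 4399599 (15.9) and at 4404990 to 4407510 (14.9), so that 3 of the 5 widest sites of IV fell between 4396998 and 4471836. The peaks of the replicates under the first of these were 429 and 1852 bp wide. The peak at 3232350 to 3234597, of 2248 bp and 9.73, was held by replicate 2 alone. Width and −log10 q had a Spearman's rho of 0.306 and a Pearson's r of 0.301 over the 245 peaks, given as a description, since both come from the same peak calls.

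The replicate lists of IV were then set against each other. Replicate 2 held an overlapping site for 79 of the 96 of replicate 1 (82.3%, 95% interval 73.2 to 89.3%), against 81.6% on the other chromosomes. Replicate 1 did so for 78 of the 127 of replicate 2 (61.4%, 52.4 to 69.9%), against 64.4%. Sites seen in one replicate only had lower medians than sites with a match, which had 6.86 in replicate 1 and 8.25 in replicate 2. The 17 unmatched sites of replicate 1 had a median of 4.95 and reached 5.88 at most. The 49 of replicate 2 had a median of 5.26 and reached 9.87, above the upper quartile of all its sites on IV, 9.50.

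At the 78 pairs of sites formed between the lists by largest overlap, replicate 2 had the lower q at 51, or 65.4% (95% interval 53.8 to 75.8%), where it did so at 67.0% of all pairs. The median ratio of −log10 q, replicate 2 to replicate 1, was 1.12 (quartiles 0.941 and 1.43). Spearman's rho across the pairs was 0.758 and Pearson's r 0.968, or 0.899 without the 2 pairs farthest from the median of replicate 1. These are descriptions across sites, which share their libraries and are not replicates. Midpoints of a pair were a median of 29.75 bp apart, and 73 of the 78 pairs lay within 200 bp.

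**Figure D4:**
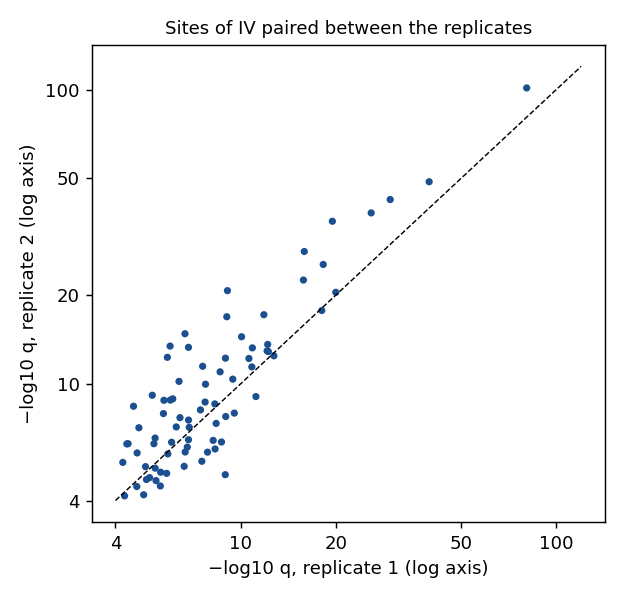
Each point is a pair of overlapping sites on chromosome IV, with the −log10 q of replicate 1 on the x axis and of replicate 2 on the y axis, both log axes. The dashed line marks equal values, and 51 of the 78 pairs lie above it, including the strongest at 80.6 and 101.

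The combined list held all 96 replicate 1 sites of IV and 126 of the 127 of replicate 2. The site it lacked, at 295485 to 296266, was a weak one, of 4.20 on the −log10 q scale. At 77 of the 78 combined peaks found in both replicates the combined q was lower than that of either, as at 352 of 357 on the other chromosomes. The exception on IV, at 5751983 to 5752349, had 5.44 in the combined list and 5.55 in replicate 1, and was the weakest peak of IV found in both. The combined −log10 q was a median of 0.950 times the sum of the values of both replicates (quartiles 0.843 and 1.06), against 0.936 on the other chromosomes. Of the 143 peaks of IV found in any replicate, 9 had a higher q in the combined list than in a replicate, against 36 of 633 elsewhere.

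Some combined peaks were supported by one list or by none in spite of a fair value. The strongest held by replicate 2 alone lay at 11955509 to 11956769 (13.4, and 5.53 in replicate 2), at 1857716 to 1858412 (11.98, and 7.78) and at 4720539 to 4720825 (11.9, and 6.42). Those held by replicate 1 alone were weaker, at 16657629 to 16658010 (9.69, and 4.71 in replicate 1), 17104169 to 17104485 (8.75, and 5.51) and 2606594 to 2608226 (8.64, and 4.77). The strongest that neither list held lay at 11692087 to 11692737 (8.71), 7084790 to 7085089 (8.30) and 13877653 to 13878443 (8.14). The other 99 peaks in neither list ranged down to 3.98, the weakest of IV. Absence from a list says only that no peak passed its unstated limit, not that NFYA-1 was not bound.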

How the data were processed

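The authors deposited a PeakSeq peak list for each ChIP replicate and a combined one, on WormBase WS180, per the file headers. Each peak carries a deposited q-value (a p-value adjusted by the caller), used here as −log10 q. Aligner, filters, q limits, the way the lists were combined and read depth are not known from the labels or headers, and intervals cover counting error only. On IV, the replicate 1 file held 288 lines, 108 of them distinct. The 96 written 2 or 3 times were used. Of these, 12 had a slightly different copy written once, all between 14032643 and 17278729.

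Shares were compared by Fisher's exact, Zelen's exact or exact binomial tests, two-sided, with Benjamini-Hochberg adjustment over 9 tests on IV and Clopper-Pearson intervals. Python 3.11.15, numpy 2.4.6, scipy 1.17.1, statsmodels 0.14.6 and matplotlib 3.10.9 were used, and overlap, pairing, gap and Fisher code was tested on simulated data. The peaks, tests and settings were chosen with earlier results of these data known. Peaks named are the 20 of lowest q, the 5 widest, the 3 strongest of each single or missing support, the 3 longest runs with gaps under 5 kb, the first and last, and replicate sites outside the combined list. Other sites were named for the result they touch. Planned tests of CCAAT in peak centres needed a WS180 genome and were not run.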

Additional observations from a re-analysis of the deposited data

How the results depend on the processing

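Of 63 alternatives, 49 left direction and call as reported, or, for values with no test, lay inside the interval of the reported value. The contrast in replicate support between the centre of IV and its arms held under 5 of 6 settings (Fisher's exact p from 0.000326 to 0.0711 over the 6). Those included counting support from 1 replicate only (24.6% against 44.5% with replicate 2, 23.2% against 41.3% with replicate 1). Such counts still take in every peak found in both replicates, so they are not separate evidence. The contrast was lost with a centre of 25 to 75% (43.6% against 57.8%). At a −log10 q of at least 7 it rested on only 11 peaks in neither list, 6 of them in the centre, against 15 of 76 found in both. The central share of all peaks, 34.3%, turned below an even spread in the stricter lists: 26.4% at a −log10 q of at least 7 (exact binomial p = 0.123, and Fisher's exact p = 0.0658 against 35.8% on the other autosomes), 19.2% for peaks found in both replicates (exact binomial p = 0.00788), and 23.96% to 24.4% with 1 replicate left out. Without III, the densest chromosome, IV became the densest one, which favours a higher share on IV. Removing III from the background raised the share on IV to 24.5% (exact p = 0.00146), gave 11.8% of peaks over 1000 bp against 17.5% (p = 0.0449), and turned the sign of non-detectable differences in support (31.8% against 31.5%) and in close neighbours (19.7% against 17.0%). Other turns of sign, all with p of 0.470 or more, were support from replicate 2 only (51.4% against 50.6%; 38.8% with replicate 1 only), width over 2000 bp (3.67% against 3.58%), width over the median at 7 or more (50.4% against 49.9%), and close neighbours at 7 or more (13.3% against 13.0%) or after merging peaks under 1 kb apart (15.9% against 14.1%). The test among peaks of 7 to 20 (29.2% against 61.1%) and those of the odds ratio against other autosomes were added after the data were seen. For the latter, the Breslow-Day test with Tarone's correction, run before the exact test, gave p = 0.00151, and 0.00319 without III. No paired analysis was possible because no list goes with the inputs, the only samples sharing a number with a ChIP sample. Depth is unknown, so weak sites may have been missed in either replicate.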
